A study of Danio rerio with 20 samples.

Results

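The genes described here encode the major histocompatibility complex (MHC) class I heavy chains of the zebrafish, their light chain and the proteins that load them with peptide. They were taken from a table of RNA-seq read counts by symbol: any gene whose symbol starts with mhc1, together with b2m, b2ml, tap1, tap2a, tapbp.1, tapbp.2 and tapbpl. Of 32105 gene identifiers in the table, 28 matched these symbols. A floor of 10 or more counts in 5 or more libraries then left 21 genes, and 7 mhc1 genes fell below it. The 21 genes are 14 heavy chain genes (mhc1uba and mhc1uca of the U lineage, 8 of the Z lineage, 3 of the L lineage and mhc1haa of the H lineage), the light chain genes b2m and b2ml, and 5 loading genes. Members were thus selected on their symbol and on the counts themselves, so that a gene stands above the floor is no finding.

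The libraries were made from brain RNA of male zebrafish (Danio rerio) with the strain label AB JxTu. There were 4 groups of 5 libraries: fish of 1 year with no exercise, fish of 1 year exercised in a swim tunnel, fish of 3 years with no exercise and fish of 3 years exercised in a swim tunnel. In a swim tunnel fish hold their place in flowing water. The sources used here give neither the duration nor the speed of swimming. The ages are different fish, and age cannot be told apart from rearing or genetic background. The labels do not say whether a library is 1 animal. P-values therefore measure the spread between these libraries.

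A class I molecule is a heavy chain bound to beta-2-microglobulin, and it displays short peptides from inside the cell to CD8 T cells. The proteasome cuts the peptides, the TAP transporter (tap1 with tap2) carries them into the endoplasmic reticulum, and tapasin (tapbp) and its relative TAPBPR (tapbpl) help to fit them into the heavy chain. In mammals these genes are induced together by interferons, and in healthy brain they are low in neurons and higher in microglia and vessel cells. Zebrafish heavy chains fall into lineages. The U lineage holds the classical, peptide-presenting genes of the core MHC region, which is carried in divergent haplotypes that differ in their U, tap2 and proteasome genes. The Z lineage is shared by many bony fish, and the L lineage holds non-classical genes. Reads of similar gene copies can be assigned to the wrong member. How similar the members are was not measured, so the level of any heavy chain gene is uncertain in that respect.

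Libraries held 23390453 to 34587938 counts. The brain label was checked against markers fixed for each cell type: the 18 neuronal marker genes summed to between 7806 and 11590 CPM (counts scaled to a common library size with TMM factors) in every library, and the 12 oligodendrocyte genes to between 10380 and 20740 CPM. Some libraries held markers of muscle, epidermis or retina. A set of 6 of them, taken over from an earlier analysis of these data, was left out in an alternative fit: 1-year unexercised replicate 1, 1-year exercised replicate 3, 3-year unexercised replicate 3 and 3-year exercised replicates 1, 2 and 4. The highest summed levels in them were 4745 CPM for muscle, 3712 CPM for epidermis and 361 CPM for retina and pineal, against group medians of 23.6 to 226, 326 to 452 and 14.0 to 18.3 CPM. The set does not hold every library high in muscle markers: 3-year unexercised replicates 4 and 5 (570.5 and 279 CPM) and 1-year exercised replicate 2 (254 CPM) stayed in that fit, while 3-year exercised replicate 4, in the set, had 371 CPM. Replicate numbers follow the order of deposit and pair no libraries.

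The light chain was the most abundant product. Per length of transcript, as RPKM recomputed from the counts and averaged over 20 libraries, b2m stood at 226 RPKM, and b2ml at 80.9 RPKM. Of the heavy chains, mhc1zba (68.6 RPKM) and mhc1zda (30.4 RPKM) led, both of the Z lineage, ahead of mhc1uca (16.8 RPKM) and mhc1uba (9.83 RPKM). The remaining heavy chains lay between 5.97 RPKM (mhc1zea) and 0.212 RPKM (mhc1zfa). Among the loading genes tapbpl was highest, at 18.6 RPKM, and tap2a, tapbp.2, tap1 and tapbp.1 lay between 3.58 and 1.84 RPKM. The spread between libraries of a group also differed by gene. The mean CV within groups was 10.8% for mhc1laa and 14.1% for both mhc1zda and tapbpl, and 118% for mhc1zca, 86.9% for mhc1zka and 74.7% for mhc1uba. Over the 21148 genes tested its median was 18.7%, with the 5th and 95th percentiles at 6.32% and 80.9%.

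Members near the floor passed it in some groups more than in others. The libraries at the floor numbered 2, 0, 4 and 5 for mhc1zja in the order 1-year unexercised, 1-year exercised, 3-year unexercised and 3-year exercised. They numbered 2, 0, 2 and 5 for mhc1lia, 2, 1, 3 and 5 for mhc1zfa, 2, 1, 4 and 2 for mhc1zca and 4, 4, 3 and 2 for mhc1zka. mhc1zja, mhc1lia and mhc1zfa thus passed through the 3-year libraries and mhc1zca through the unexercised ones, and would not have passed on the opposite libraries alone. mhc1zca would also not have passed on the 1-year libraries alone, nor mhc1lia on the unexercised ones alone. The values of these genes in those directions follow in part from the rule and are a description. mhc1lia and mhc1zca lay just inside the rule, with 9 libraries each. mhc1lda (ENSDARG00000023203) lay just outside it, with 3 libraries at 10 counts or more. It had 68 counts in 3-year unexercised replicate 3 and, among exercised fish of 3 years, 150 in replicate 1 and 66 in replicate 3, and 1 or 0 in the other 17. In those 3 libraries, only mhc1lda and the unnamed identifier ENSDARG00000051710, of 16997 genes at 1 CPM or more in all of them, were at least 4-fold above every other library. The other genes below the floor (mhc1lba, mhc1lfa, mhc1lga, mhc1lja, mhc1lla and mhc1uma) had at most 8 counts in a library.

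**Figure D1:**
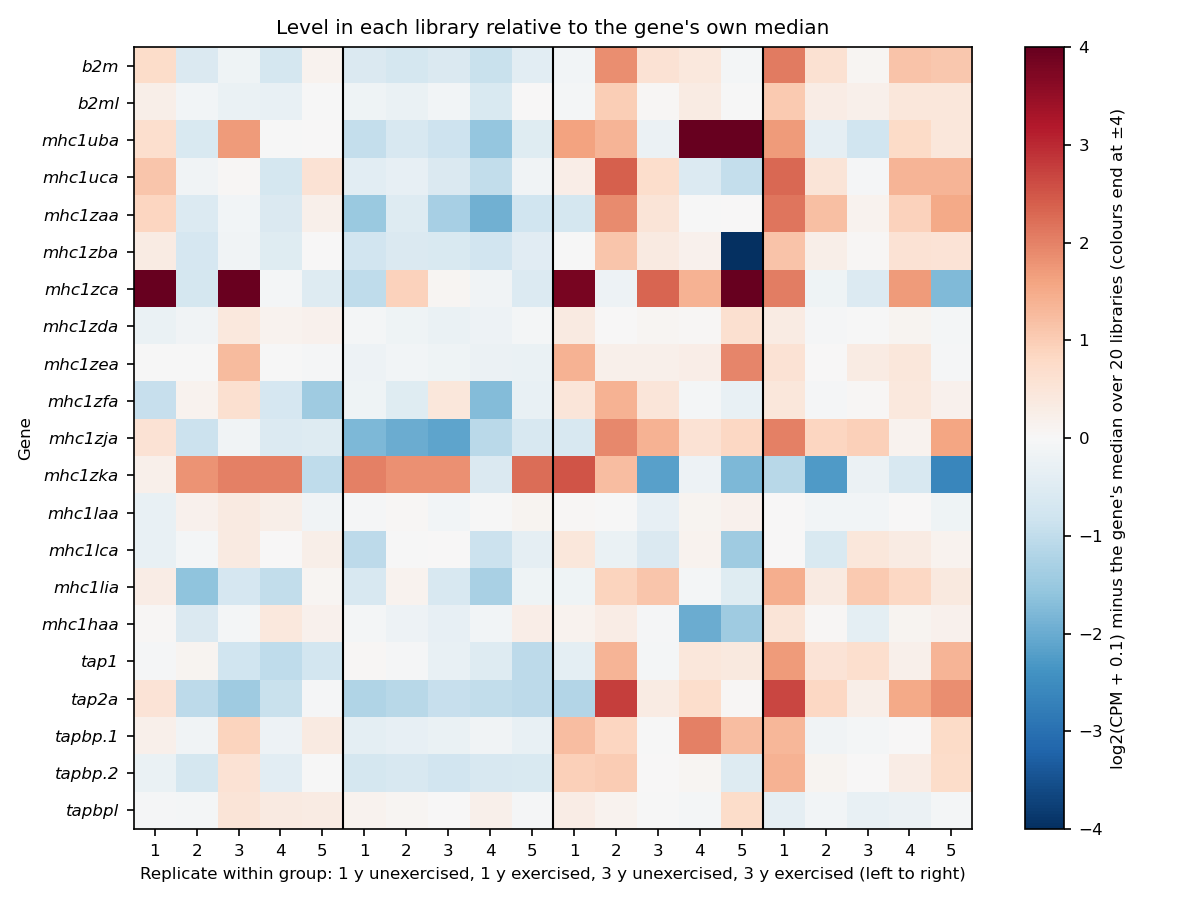
Level of each of the 21 genes (rows) in each of the 20 libraries (columns, black lines between groups), as log2(CPM + 0.1) minus the gene's own median, with red above and blue below the median. b2m, mhc1uca, mhc1zaa and tap2a are red together in replicate 2 of the 3-year unexercised group and replicate 1 of the 3-year exercised group. mhc1zba has a single library far from the rest, mhc1uba and mhc1zca have a few, and mhc1zka is split between higher and lower libraries.

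Fish of 3 years were compared with fish of 1 year among exercised fish, which asks how the brain differs with age after swimming. Here 9 of the 21 genes passed the test (edgeR's quasi-likelihood test, Benjamini-Hochberg adjusted over 21148 genes, threshold 0.05). In this comparison 10.6% of all genes tested passed, 6.77% higher and 3.88% lower at 3 years. Of the members, 8 rose: both light chain genes, the heavy chains mhc1uca, mhc1zaa and mhc1zja, and the loading genes tap1, tap2a and tapbp.2. mhc1zka fell. Of the 8 that rose, mhc1zja is a member only through the 3-year libraries, in which it is high, and is no support for the count. The median log2 fold change of the 21 genes was 1.14 and that of all genes tested 0.01. In 12 members every 3-year exercised library lay above every 1-year exercised one, and in tapbpl every 3-year exercised library lay below, while over all genes tested such a gap was found in 6.99% above and 4.34% below. The 12 include mhc1zja and mhc1lia, members only through the 3-year libraries, which are no support for that number. The median of the 21 genes includes them too, and mhc1zfa, which passed in the same way. It also includes mhc1zca, which would not have passed on the 1-year libraries alone. The value of mhc1zca, 1.14, is itself that median.

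b2m (ENSDARG00000053136), the light chain common to all class I molecules, had 143, 134, 146, 117 and 159 CPM in the 1-year exercised libraries and 899.5, 331, 227, 476 and 451 CPM in the 3-year exercised ones, in the order of replicates 1 to 5. The lowest library at 3 years lay above the highest at 1 year, and replicate 1 was far above the other 4 at 3 years. The group means were 139.6 ± 15.6 and 477 ± 256 CPM (SD, n = 5), a log2 fold change of 1.77 ± 0.39 (SE, adjusted p = 0.0111 in edgeR), or 3.42-fold. b2ml (ENSDARG00000015887), the second light chain gene, had 231, 216, 243, 172 and 260.2 CPM at 1 year and 539, 320.4, 299.7, 357 and 357 CPM at 3 years with exercise. Again no 3-year library overlapped the 1-year ones, and replicate 1 was far above the other 4. The log2 fold change of b2ml was 0.74 ± 0.20 (adjusted p = 0.0234). In bulk tissue, more cells of a type and more RNA per cell cannot be told apart, and this holds for every gene below.

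Of the heavy chains, mhc1uca (ENSDARG00000092731), of the classical U lineage, had 11.0, 11.5, 9.70, 7.40 and 13.2 CPM in the 1-year exercised libraries and 72.7, 20.8, 14.1, 37.6 and 37.9 CPM in the 3-year exercised ones. The groups did not overlap, but replicate 3 at 3 years was close to the highest 1-year library. The log2 fold change was 1.79 ± 0.55 (adjusted p = 0.0439). The call was lost in 13 of 31 alternative settings, the highest adjusted p being 0.469. Leaving out any single library of the 1-year exercised group was enough to lose it. mhc1zaa (ENSDARG00000092162), of the Z lineage, had 0.689, 1.43, 0.774, 0.482 and 1.16 CPM at 1 year and 9.61, 4.93, 2.32, 4.09 and 6.23 CPM at 3 years. It was low in every library and did not overlap between ages, with a log2 fold change of 2.58 ± 0.50 (adjusted p = 0.00645). mhc1zja (ENSDARG00000074765), another Z gene, had 2, 1, 1, 5 and 8 counts in the 1-year exercised libraries and 60, 33, 31, 18 and 55 counts in the 3-year exercised ones. It was near absent at 1 year, below the floor in all 5 libraries, and above it in all 5 at 3 years. Its log2 fold change of 3.37 ± 0.61 (adjusted p = 0.00519) rests on these low counts.

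mhc1zka (ENSDARG00000104293), also of the Z lineage, went the other way, with 72, 47, 64, 9 and 84 counts at 1 year and 5, 1, 13, 10 and 0 counts at 3 years with exercise. The ages overlapped, since replicate 4 at 1 year was as low as replicates 3 and 4 at 3 years. The log2 fold change was -3.36 ± 1.05 (adjusted p = 0.0471), and the call was lost in 18 of 31 alternative settings, the highest adjusted p being 0.372. The most abundant heavy chain, mhc1zba (ENSDARG00000036588), had 90.0 to 113 CPM at 1 year and 161 to 343 CPM at 3 years with exercise. These ranges were separate, yet its log2 fold change of 1.19 ± 0.55 missed the threshold (adjusted p = 0.172). mhc1zda and mhc1zea also had separate ranges and missed it, with log2 fold changes of 0.23 ± 0.13 and 0.47 ± 0.33, and so did mhc1lia, at 1.68 ± 0.54 (adjusted p = 0.0524). In this fit the spread of a gene is taken from all 20 libraries, those of unexercised fish included. For mhc1zba they include 3-year unexercised replicate 5, at 4.51 CPM. The CV of mhc1zba was 9.63% and 30.7% in exercised fish of 1 and 3 years, and 68.1% in unexercised fish of 3 years. Why mhc1zba missed the threshold was not tested. The members with the smallest age values were mhc1laa (-0.07 ± 0.13) and mhc1haa (0.20 ± 0.33).

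Among the loading genes, tap2a (ENSDARG00000036787), a subunit of the peptide transporter, had 2.89, 3.12, 3.55, 3.41 and 3.25 CPM at 1 year and 44.5, 12.2, 7.97, 19.6 and 25.0 CPM at 3 years with exercise. The 1-year libraries were within a narrow range and the 3-year ones spread widely above it. The log2 fold change was 2.75 ± 0.63, or 6.72-fold (adjusted p = 0.0125). Its partner tap1 (ENSDARG00000079766, TAP1 in the table of names) had 4.86, 4.64, 3.84, 3.31 and 2.23 CPM at 1 year and 15.6, 6.93, 7.54, 5.46 and 12.2 CPM at 3 years. The ranges were separate by a small margin, with a log2 fold change of 1.34 ± 0.35 (adjusted p = 0.0224). The tapasin gene tapbp.2 (ENSDARG00000045011) had 3.64, 3.88, 3.51, 3.82 and 3.95 CPM at 1 year and 16.0, 6.51, 6.11, 7.44 and 10.1 CPM at 3 years. It showed the same arrangement, a tight group at 1 year and a wide group above it, with a log2 fold change of 1.29 ± 0.31 (adjusted p = 0.0163).

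The other tapasin gene, tapbp.1 (ENSDARG00000079402), overlapped between ages and missed the threshold (0.82 ± 0.34, adjusted p = 0.135). tapbpl (ENSDARG00000058351), the peptide editor TAPBPR, had 96.7, 92.6, 89.0, 100.1 and 85.7 CPM at 1 year and 67.7, 81.0, 71.2, 75.2 and 83.5 CPM at 3 years with exercise. All 5 libraries at 3 years lay below all 5 at 1 year, and the log2 fold change of -0.29 ± 0.14 missed the threshold (adjusted p = 0.174).

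These calls leaned on particular libraries. Leaving out a library at a time, the number of members called ranged from 4, without 3-year exercised replicate 1, to 11, without 3-year unexercised replicate 5. The calls lost when 3-year exercised replicate 1 was omitted were those of b2ml, mhc1uca, mhc1zka, tap1 and tapbp.2, and b2m, mhc1zaa, mhc1zja and tap2a were still called. Of the 4 still called, mhc1zja is a member only through the 3-year libraries and is no support for that count. With 1-year exercised replicate 3, 4 or 5 left out there were 6 calls. The share of all genes called with single libraries left out was not set beside these counts. Whether class I genes or the whole comparison leaned on those libraries therefore cannot be told. The same holds for such counts in the other comparisons and lists. Without the set of 6 libraries left out for markers of other tissues, which keeps 3 others high in muscle markers and leaves 2 libraries of the 3-year exercised group, 0 of the 21 members passed in edgeR, 7 had an unadjusted p below 0.05, and of all genes 6 passed. The log2 value of b2m was then 1.3, with an adjusted p of 0.221.

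**Figure D2:**
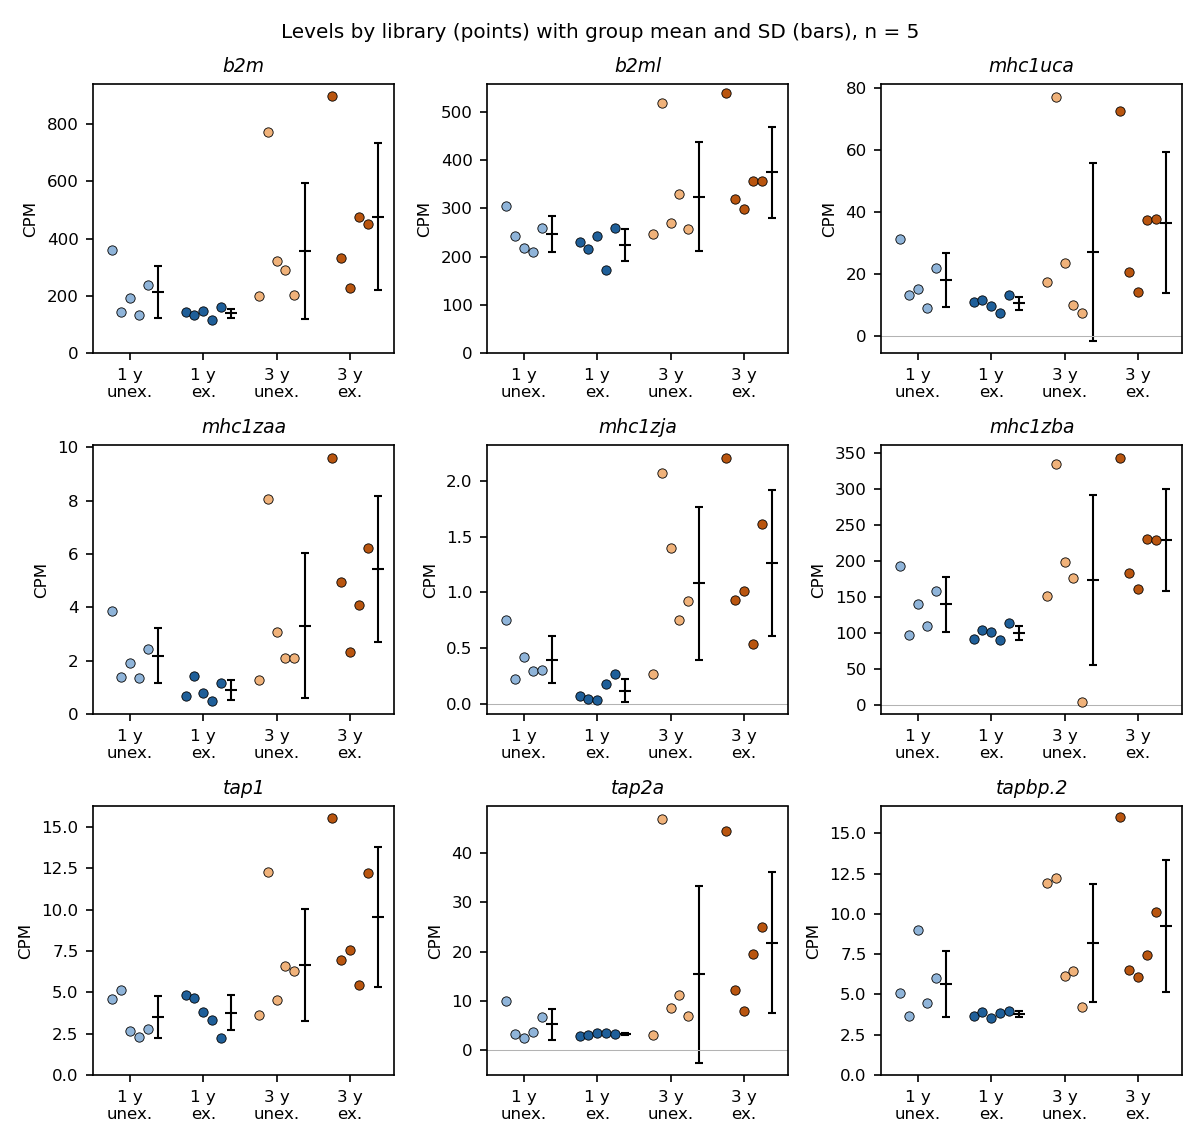
CPM of 9 members in each library (points, in order of replicate) with the group mean and SD (n = 5) beside them, for the 4 groups of age and exercise. In the 1-year exercised group b2m lies between 117 and 159 CPM and tap2a between 2.89 and 3.55 CPM, and in all 9 panels the 3-year exercised points lie above that group. This follows from the choice of panels: all 9 are among the 12 members with such a gap, and members whose ages overlapped, and tapbpl, are not drawn. One of the 9, mhc1zja, is a member only through the 3-year libraries.

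**Figure D3:**
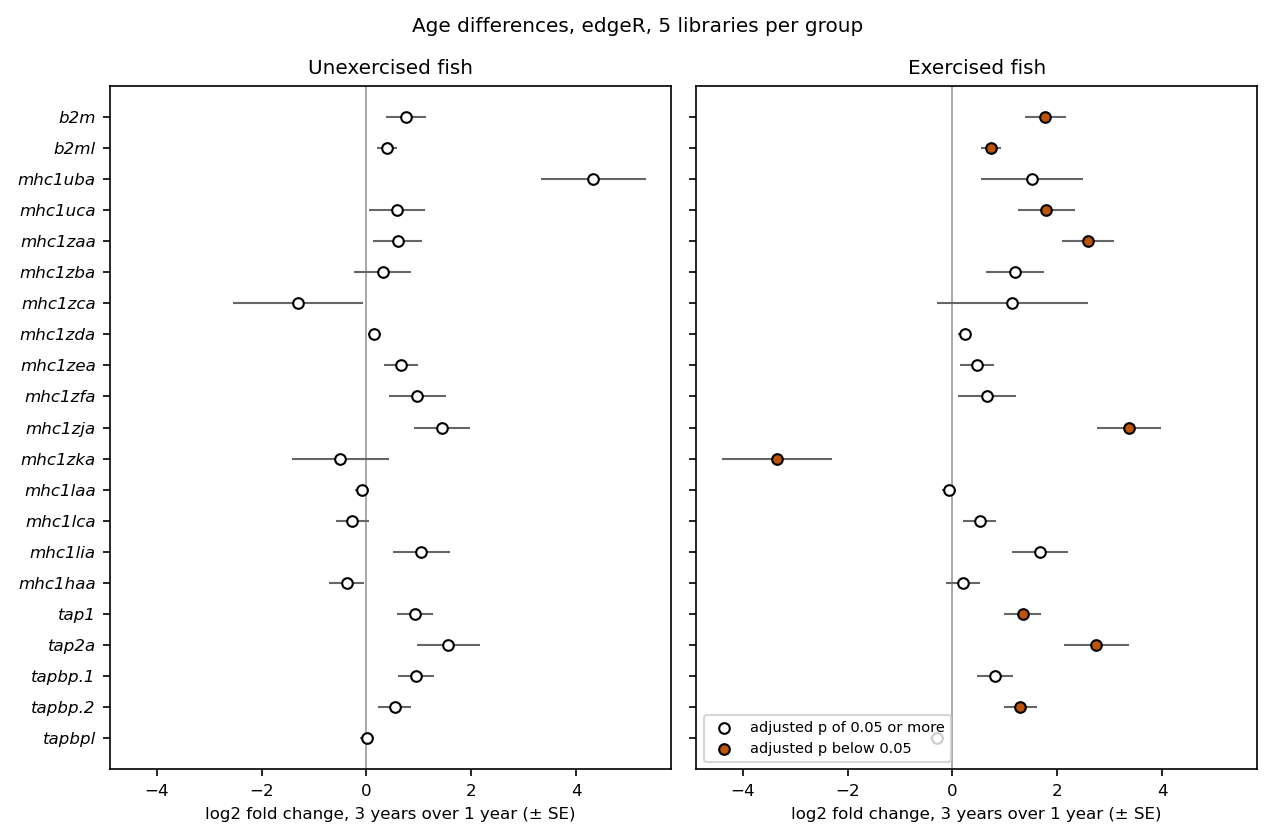
Log2 fold change of 3 years over 1 year (± SE, edgeR) for each of the 21 genes, in unexercised fish on the left and exercised fish on the right, with filled points where the adjusted p is below 0.05. There are 9 filled points among exercised fish and 0 among unexercised fish, where mhc1uba has the highest value, 4.33.

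Averaged over exercise, 11 of the 21 genes passed for age, and all 11 were higher at 3 years. Over all genes tested 16.9% passed, 9.65% higher and 7.3% lower. The median log2 fold change of the 21 genes, those that passed the floor only through the 3-year libraries included, was 0.81. Of the 11 called, mhc1zja (2.41 ± 0.41, adjusted p = 0.00116) and mhc1lia (1.36 ± 0.38, adjusted p = 0.0195) are members only through the 3-year libraries, so their values are a description and the count rests on the other 9. Among those the smallest p were those of tap2a (2.15 ± 0.43, adjusted p = 0.00317), mhc1zaa (1.59 ± 0.34, adjusted p = 0.00456) and b2m (1.26 ± 0.27, adjusted p = 0.00489). tap1, tapbp.2, b2ml and mhc1uca also passed, as they did with exercise. The genes called here and not in exercised fish alone were mhc1uba (2.93 ± 0.69, adjusted p = 0.00796), tapbp.1 (0.88 ± 0.24, adjusted p = 0.0182) and mhc1lia. Both mhc1uba and tapbp.1 lost the call without 3-year unexercised replicates 4 and 5, where mhc1uba was far above all other libraries (adjusted p = 0.0775 and 0.0687). mhc1uca lost it in 19 of 30 alternatives. Leaving out single libraries gave 10 to 12 calls. Without the same 6 libraries 5 calls were made: b2m, mhc1zja, tap1, tap2a and tapbp.1.

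Between unexercised fish of 3 and 1 years, 0 of the 21 genes passed in edgeR, 5 had an unadjusted p below 0.05, and DESeq2 called 1, mhc1uba. In edgeR 0.586% of all genes tested passed, 0.222% higher and 0.364% lower, and DESeq2 called more of all genes than edgeR did. In 0 of the 21 genes were the ages separate, against 1.24% of all genes higher and 1.36% lower. The members' median log2 fold change was 0.59, against -0.003 over all genes. The 5 genes with an unadjusted p below 0.05 in edgeR include mhc1zja, a member only through the 3-year libraries, in which it is high. The median includes mhc1zja, mhc1lia and mhc1zfa, which all passed the floor in that way. These genes are no support for either number. The median also includes mhc1zca (-1.31), which would not have passed on the 1-year libraries alone. b2m had 361, 144, 191, 133 and 238 CPM in the 1-year unexercised libraries and 201, 773, 321, 289 and 204 CPM in the 3-year unexercised ones. The ages overlapped, with replicate 1 high at 1 year and replicate 2 far above the others at 3 years. The means were 213 ± 92.4 and 358 ± 238 CPM, a log2 fold change of 0.75 ± 0.38 (adjusted p = 0.392), which was 0.24 without the 2 libraries highest in b2m. tap1 (0.93 ± 0.35, adjusted p = 0.237) and tapbp.1 (0.95 ± 0.34, adjusted p = 0.219) followed mhc1uba (4.33 ± 1.00, adjusted p = 0.0581) in order of p. With 1 library left out, 1 member was called without 3-year exercised replicate 1 or without 3-year unexercised replicate 1, 2 or 3, and 0 without any other.

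In the 3-year unexercised group replicate 2 was far above the rest in several members. tap2a had 10.01, 3.24, 2.49, 3.63 and 6.68 CPM in the 1-year unexercised libraries and 2.95, 47.0, 8.51, 11.2 and 6.99 CPM in the 3-year ones. Replicate 2 was several times the rest, while replicate 1 at 3 years was as low as the lower 1-year libraries. mhc1uca had 31.3, 13.3, 15.1, 9.01 and 21.9 CPM at 1 year and 17.4, 77.2, 23.7, 9.98 and 7.57 CPM at 3 years without exercise. Here too replicate 2 stood alone, and replicates 4 and 5, which had the most mhc1uba, had the least mhc1uca. mhc1zaa had 3.85, 1.41, 1.92, 1.36 and 2.43 CPM at 1 year and 1.26, 8.07, 3.06, 2.08 and 2.1 CPM at 3 years, again with replicate 2 highest and the other 4 no higher than the upper 1-year libraries. b2ml had 304, 243, 218, 209.8 and 259 CPM at 1 year and 247, 518, 270.4, 329 and 256 CPM at 3 years, with the same library highest. Of the 21 genes, 11 were highest in replicate 2 within the 3-year unexercised group, and 18 were highest in replicate 1 within the 3-year exercised group. The share of all genes tested that were highest in these libraries was not counted. Whether this belongs to class I genes or to these libraries in general therefore cannot be told.

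An age difference with exercise and none past the threshold without it does not show that age acts differently in the 2 settings. The test of that difference is the same as that of whether exercise acts differently at the 2 ages. In it 0 of 21 members passed in edgeR and 0 in DESeq2, and 3 had an unadjusted p below 0.05 in edgeR. Of all genes 0.00473% passed in edgeR. The smallest p were those of mhc1zaa (1.99 ± 0.67), mhc1zja (1.93 ± 0.80) and mhc1uba (-2.81 ± 1.33), all with an adjusted p of 0.982, in log2 units of the exercise difference at 3 years minus that at 1 year. The value of mhc1uba was 0.98 without the 2 libraries in which it was far above all others. b2m had 1.03 ± 0.54 (adjusted p = 0.982).

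Exercised and unexercised fish were then compared within each age. At 1 year 0 of the 21 genes passed in edgeR and 3 had an unadjusted p below 0.05. Of all genes 0.0189% passed in edgeR, 0.00473% higher and 0.0142% lower. DESeq2 called 1 member, mhc1zca, and called more of all genes than edgeR did. As mhc1zca is a member only through the unexercised libraries, in which it is high, its exercise values are a description. Log2 fold changes were negative in 19 of the 21 genes, mhc1zca among them, and in 11584 of the 21148 genes tested. The median of the 21 genes was -0.48, against -0.02 over all genes. Of the gene lists described below, the 28 microglia and macrophage genes tested were all negative, as were 30 of 31 interferon-stimulated genes. Of 18 neuronal genes 16 were positive. Whether the negative values are particular to class I genes was not tested. For b2m the 1-year exercised libraries lay between 117 and 159 CPM and the unexercised ones between 133 and 361 CPM, overlapping at the low end, with a log2 fold change of -0.61 ± 0.38 (adjusted p = 0.561). mhc1zaa (-1.28 ± 0.49, adjusted p = 0.34) and mhc1zja (-1.72 ± 0.62, adjusted p = 0.307) had small p with overlapping libraries, and mhc1zca had the smallest (-4.91 ± 1.5, adjusted p = 0.241). The value of mhc1zca leaned on 1-year unexercised replicate 1, with 30.1 CPM, and was -2.55 without that library. Replicate 3 of that group, at 5.11 CPM, was also above the rest of it. Replicate 1 of that group also had the most muscle and epidermis markers of the 20 libraries, 4745 and 3712 CPM. Whether tissue other than brain added to its mhc1zca was not tested. mhc1zea was the only member with separate ranges, lower in exercised fish, where 0.979% of all genes were.

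For the members, the 1-year exercised group was the most even of the 4, with the lowest CV in 16 of the 21 genes. The share of all genes tested with their lowest CV in this group was not counted. Whether the evenness belongs to class I genes or to these libraries in general therefore cannot be told. The CV of b2m was 11.2% in it, against 43.3%, 66.6% and 53.8% in the 1-year unexercised, 3-year unexercised and 3-year exercised groups. For tap2a the values were 7.85% against 59.9%, 117% and 65.2%, and for tapbp.2 4.78% against 36.7%, 44.8% and 44.5%. For mhc1zba they were 9.63% against 27.6%, 68.1% and 30.7%.

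At 3 years 0 of the 21 genes passed for exercise in edgeR and 5 had an unadjusted p below 0.05. Of all genes 0.0284% passed in edgeR, 0.0142% higher and 0.0142% lower. DESeq2 called 1 member, mhc1uba, and called more of all genes than edgeR did. In 0 of the 21 genes were the 2 groups separate, against 0.865% of all genes higher and 0.875% lower. b2m did not differ past the threshold (0.42 ± 0.38, adjusted p = 0.89), and its value was -0.12 without that set of 6 libraries. mhc1uba was lower by log2 fold change (-4.30 ± 1.00, adjusted p = 0.232), a value that was -0.51 without 3-year unexercised replicates 4 and 5. tapbpl had 109, 96.7, 86.4, 83.3 and 145 CPM in unexercised and 67.7, 81.0, 71.2, 75.2 and 83.5 CPM in exercised fish of 3 years. Only exercised replicate 5 reached above the lowest unexercised library, and the log2 fold change was -0.46 ± 0.14 (adjusted p = 0.33). mhc1zka had -2.52 ± 1.03 (adjusted p = 0.515).

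Averaged over ages, 0 members passed for exercise in edgeR and 6 had an unadjusted p below 0.05. Of all genes 0.908% passed in edgeR, 0.681% higher and 0.227% lower. DESeq2 called 2 members, mhc1uba and mhc1zca, and called more of all genes than edgeR did. Of these members, mhc1zca is one only through the unexercised libraries, so its call and its p are a description and no support for either count. The smallest p were those of mhc1uba (-2.90 ± 0.69, adjusted p = 0.0518), mhc1zca (-3.69 ± 1.00, adjusted p = 0.0857) and tapbpl (-0.31 ± 0.10, adjusted p = 0.149). Without the 2 libraries with the most mhc1uba its value was -1.0 (adjusted p = 0.252), and without 1-year unexercised replicate 1 that of mhc1zca was -2.50 (adjusted p = 0.185). b2m had -0.10 ± 0.27 (adjusted p = 0.909). With 1 library left out, 2 members were called without 1-year unexercised replicate 5, 1 without replicate 2 of that group, replicate 1 of the 3-year exercised group or replicate 1, 2 or 3 of the 3-year unexercised group, and 0 without any other.

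Several heavy chain genes were set apart by particular libraries rather than by group. mhc1uba (ENSDARG00000075963), a classical U gene, had 4.77, 1.87, 9.70, 2.89 and 2.97 CPM in the 1-year unexercised libraries and 1.48, 1.83, 1.61, 0.930 and 2.06 CPM in the 1-year exercised ones. It had 9.19, 7.75, 2.50, 256 and 173 CPM in the 3-year unexercised libraries and 9.75, 2.28, 1.63, 5.07 and 4.07 CPM in the 3-year exercised ones. Replicates 4 and 5 of the 3-year unexercised group, with 7130 and 4524 counts, lay far above the other 18 libraries, which had 27 to 304 counts. Of 17144 genes at 1 CPM or more in both of these libraries, mhc1uba was the only gene at least 4-fold above all 18 others. Both libraries were also high in muscle markers (570.5 and 279 CPM). In the 1-year unexercised group, replicate 1 had 4745 CPM of these markers and 4.77 CPM of mhc1uba. Among exercised fish of 3 years, replicate 1 had 702 CPM of the markers and 9.75 CPM of mhc1uba. Whether muscle tissue added to mhc1uba in replicates 4 and 5 of the 3-year unexercised group was not tested.

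In those libraries the order of the U genes was the reverse of that elsewhere. Of the reads of mhc1uba and mhc1uca together, mhc1uba held 96.2% in 3-year unexercised replicate 4 (95% Wilson interval 95.8 to 96.7, counting error only) and 95.8% in replicate 5 (95.2 to 96.3). In the other 18 libraries the share was 9.12% to 39.1%. It was highest among these in replicate 3 of the 1-year unexercised group (39.1%) and replicate 1 of the 3-year unexercised group (34.5%), and at most 24.3% elsewhere. mhc1haa (ENSDARG00000092225) was lowest in the same 2 libraries, at 2.05 and 3.10 CPM, with 5.62 to 12.2 CPM in the other 18.

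The Z genes showed libraries of their own. mhc1zba stood at 4.51 CPM, or 118 counts, in 3-year unexercised replicate 5, and between 90.0 and 343 CPM in the other 19 libraries. mhc1zea (ENSDARG00000001470) had 23.8 CPM in 1-year unexercised replicate 3 and, among unexercised fish of 3 years, 26.2 CPM in replicate 1 and 38.4 CPM in replicate 5, and 8.33 to 14.9 CPM in the other 17. The high libraries of mhc1zea thus include the library that is low in mhc1zba. mhc1zca (ENSDARG00000069471) had 30.1, 0.108, 5.11, 0.220 and 0.135 CPM in the 1-year unexercised and 4.64, 0.191, 1.59, 0.790 and 7.15 CPM in the 3-year unexercised libraries. In the exercised libraries it had 0.0657, 0.535, 0.258, 0.207 and 0.133 CPM at 1 year and 1.29, 0.197, 0.131, 1.01 and 0 CPM at 3 years. Its levels ran from 883 counts in 1-year unexercised replicate 1 to 0 counts in 3-year exercised replicate 5. Every library above 2 CPM was of unexercised fish. As mhc1zca passed the floor only through the unexercised libraries, that pattern follows in part from the rule and is a description. Its highest library, 1-year unexercised replicate 1, had 4745 CPM of muscle and 3712 CPM of epidermis markers. Among unexercised fish of 3 years, replicate 3 had 2377 CPM of epidermis markers and 1.59 CPM of mhc1zca, and replicate 5 had 310 and 7.15 CPM. The part of these tissues in mhc1zca was not tested.

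mhc1zka had 0.613, 2.02, 2.39, 2.38 and 0.202 CPM in the 1-year unexercised libraries and 2.36, 2.1, 2.06, 0.310 and 2.79 CPM in the 1-year exercised ones. It had 3.45, 1.34, 0.0378, 0.431 and 0.0764 CPM in the 3-year unexercised libraries and 0.184, 0.0282, 0.425, 0.297 and 0 CPM in the 3-year exercised ones. Libraries above 1 CPM and below 0.5 CPM occurred in 3 of the groups, and the 3-year exercised group had low libraries only. By contrast mhc1laa (ENSDARG00000016056) lay between 2.80 and 4.5 CPM and mhc1zda (ENSDARG00000086877) between 77.2 and 145 CPM in all 20 libraries. mhc1lca (ENSDARG00000055813) ranged from 0.917 to 3.66 CPM and mhc1zfa (ENSDARG00000088022), the lowest member per length, from 0.0344 to 1.08 CPM. mhc1lia (ENSDARG00000097766) ranged from 0.0360 to 1.03 CPM.

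**Figure D4:**
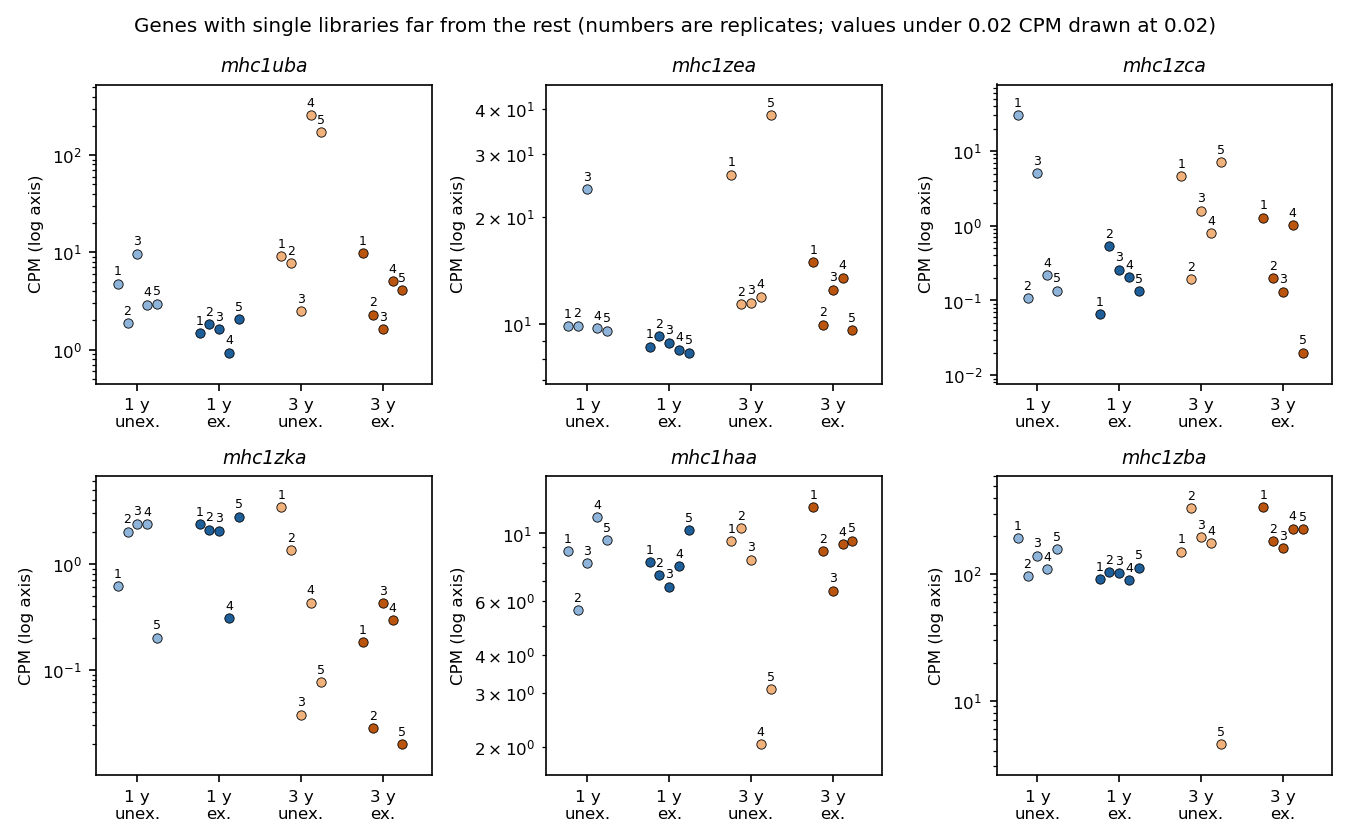
CPM of 6 heavy chain genes in each library on a log axis, with the replicate number over each point; values under 0.02 CPM are drawn at 0.02. mhc1uba reaches 256 and 173 CPM in 3-year unexercised replicates 4 and 5 and at most 9.75 CPM elsewhere, and mhc1zba drops to 4.51 CPM in 3-year unexercised replicate 5.

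By lineage, the summed level of the 2 U genes was 12.1 ± 2.56 CPM in 1-year exercised fish and 41.2 ± 25.9 CPM in 3-year exercised fish (SD, n = 5), and 22.6 ± 9.51 and 117 ± 105 CPM in unexercised fish of 1 and 3 years. The 8 Z genes summed to 196 ± 12.8 and 347 ± 86.4 CPM in exercised fish of 1 and 3 years, and to 264 ± 50.4 and 313 ± 91.4 CPM in unexercised fish. The 3 L genes summed to between 4.79 and 8.01 CPM in every library. These sums keep the unequal lengths of the genes and are compared only between groups.

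A RefSeq table of the zebrafish genome, of another build than the one the counts were made on, named 18 of the members, and its gene order was read without coordinates. It placed mhc1zea, mhc1zda, mhc1zca and mhc1zba next to each other. tapbp.1, mhc1uka (for which it lists mhc1uca as a synonym), tapbp.2 and mhc1uba also followed each other with no coding gene between. The proteasome genes psmb13a, psmb8a, psmb12 and psmb9a lay between mhc1uba and tap2a. mhc1zda, between mhc1zea (33.5%) and mhc1zca (118%), had a mean CV within groups of 14.1%. That of tapbp.2, beside mhc1uba (74.7%), was 32.7%, near that of mhc1zea.

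The wider class I pathway was described with a list of 42 identifiers, of which 40 were tested. It covers proteasome subunits, aminopeptidases, chaperones, transporters, ubiquitin and regulators. It also names the T cell co-receptor genes cd8a and cd8b, which are on the lymphocyte list below too, so these lists overlap. With exercise, 17 of the 40 rose with age and 0 fell, against 6.77% and 3.88% of all genes, with a list median of 0.41. IRF8, a transcription factor of myeloid cells, rose by 2.05 ± 0.38 log2 units (adjusted p = 0.00555), from 6.37 ± 1.28 to 26.4 ± 14.7 CPM. nlrc5, which in mammals drives class I transcription, had 1.86 ± 0.36 (adjusted p = 0.00645). The proteasome activator genes PSME1 and PSME2 had 1.63 ± 0.36 and 1.73 ± 0.36 (adjusted p = 0.011 and 0.00873), and the immunoproteasome gene psmb13a, a neighbour of mhc1uba, 2.55 ± 0.61 (adjusted p = 0.0156). tap2t, a further tap2 gene, had 0.66 ± 0.14 (adjusted p = 0.00852). Averaged over exercise 21 of the 40 rose and 1 fell, against 9.65% and 7.3% of all genes. Leaving out single libraries, 5 to 19 of the list were called with exercise: 5 when 3-year exercised replicate 1 was omitted, and 9, 9, 11 and 10 when replicate 1, 3, 4 or 5 of the 1-year exercised group was.

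Of 31 interferon-stimulated genes tested, 16 rose with age in exercised fish and 0 fell, against 6.77% and 3.88% of all genes. The list median was 1.22. gbp3, a guanylate-binding protein gene, rose by 1.83 ± 0.27 log2 units (adjusted p = 0.00207), and gbp1 by 2.25 ± 0.52 (adjusted p = 0.0137). parp9 had 2.21 ± 0.43 (adjusted p = 0.0068), the RNA sensor gene IFIH1 1.36 ± 0.30 (adjusted p = 0.0113) and the interferon signalling gene irf9 1.09 ± 0.26 (adjusted p = 0.0141). mxc, an antiviral Mx gene, went from 0.476 ± 0.197 to 12.8 ± 14.4 CPM (4.73 ± 1.13, adjusted p = 0.0149). Averaged over exercise 20 of the 31 rose and 0 fell, against 9.65% and 7.3% of all genes. Leaving out single libraries, 4 to 17 were called with exercise: 4 when 3-year exercised replicate 1 was omitted, and 10, 9 and 6 when replicate 1, 3 or 4 of the 1-year exercised group was. In the 5 comparisons other than these age ones, edgeR called 0 genes of either list, and the number of genes with an unadjusted p below 0.05 was at most 16 of 40 and 13 of 31, both for age without exercise. With the set of 6 libraries left out, 0 genes of either list passed for age with exercise. With all libraries, DESeq2 called 3 genes of each list for age without exercise and 1 interferon-stimulated gene for exercise at 3 years. In both comparisons DESeq2 also called more of all genes than edgeR did.

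The list genes with the smallest p in those 5 comparisons, none of them called, were as follows. Without exercise the age values of IRF8 (1.35 ± 0.37, adjusted p = 0.122) and the immunoproteasome gene PSMB10 (0.80 ± 0.22, adjusted p = 0.132) were positive, as were those of ZNFX1 (0.64 ± 0.17, adjusted p = 0.109) and IFIH1 (1.06 ± 0.30, adjusted p = 0.139). For exercise at 1 year they were CALR, a chaperone of the endoplasmic reticulum (0.22 ± 0.07, adjusted p = 0.241), ifit11 (-1.14 ± 0.32, adjusted p = 0.203) and parp9 (-1.02 ± 0.42, adjusted p = 0.374). For exercise at 3 years they were 2 ubiquitin genes (-0.59 ± 0.24 and -0.35 ± 0.16, adjusted p = 0.5 and 0.602), gbp3 (1.15 ± 0.26, adjusted p = 0.232) and the chemokine gene cxcl20 (1.48 ± 0.56, adjusted p = 0.48). The difference between those exercise values was smallest in p for CALR (-0.28 ± 0.09), ABCB9 (0.32 ± 0.16), gbp3 (1.18 ± 0.37) and cxcl20 (2.11 ± 0.80), all with an adjusted p of 0.982. Averaged over ages, exercise gave UBB -0.24 ± 0.11 (adjusted p = 0.37), ERAP1, an aminopeptidase that trims peptides, -0.20 ± 0.10 (adjusted p = 0.401), gbp3 0.56 ± 0.19 (adjusted p = 0.18) and ifit11 -0.58 ± 0.23 (adjusted p = 0.258). Without 3-year unexercised replicate 2, edgeR called 1 interferon-stimulated gene in each of the 3 exercise comparisons other than that at 1 year. For age without exercise it called 1 antigen processing gene without 1-year unexercised replicate 1, and 1 interferon-stimulated gene without that library or 3-year unexercised replicate 1 or 5.

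Averaged over exercise, age values of the antigen processing genes with the smallest p were 1.70 ± 0.26 for IRF8 (adjusted p = 0.000627), 1.38 ± 0.25 for nlrc5 (adjusted p = 0.00166) and 0.81 ± 0.16 for PSMB10 (adjusted p = 0.00258). PSME2 had 1.3 ± 0.25, tap2t 0.49 ± 0.10 and PSME1 1.22 ± 0.25 (adjusted p = 0.00259, 0.00306 and 0.00352). In the interferon list they were gbp3 (1.24 ± 0.19, adjusted p = 0.00056), parp9 (1.77 ± 0.30, adjusted p = 0.00111), IFIH1 (1.21 ± 0.21, adjusted p = 0.00149), ZNFX1 (0.66 ± 0.12, adjusted p = 0.00174), the chemokine gene cxcl11.1 (3.93 ± 0.79, adjusted p = 0.00317) and irf9 (0.90 ± 0.18, adjusted p = 0.00317).

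Markers of immune cells moved with the same age comparison. Of 28 microglia and macrophage genes tested, 19 were called higher at 3 years among exercised fish, and of 27 lymphocyte genes 11, against 6.77% of all genes. The microglial list summed to 668 to 768 CPM in 1-year exercised and 870 to 1642 CPM in 3-year exercised libraries, and to 556 to 1431 and 763 to 1387 CPM in unexercised fish of 1 and 3 years. The lymphocyte list summed to 156 to 192 and 201 to 296 CPM in exercised fish of 1 and 3 years, and to 162 to 241 and 201 to 404 CPM in unexercised fish. 3-year exercised replicate 1 was highest of all libraries in the microglial list and 3-year unexercised replicate 2 in the lymphocyte list. cd8a, the co-receptor of T cells that read class I, ranged from 0.103 to 1.07 CPM in 1-year exercised and from 0.490 to 7.77 CPM in 3-year exercised libraries, and reached 20.1 CPM in 3-year unexercised replicate 2. No gene of these lists was at 0 in all libraries. Of 10 neutrophil genes 2 were called higher, of 13 muscle genes 3 and of 12 oligodendrocyte genes 2. Lower calls were 4 of 18 neuronal genes and 1 of 7 erythrocyte genes, against 3.88% of all genes. Of 17 endothelial and mural genes 1 was called higher and 1 lower. In the epidermis, retina and pineal, and radial glia lists 0 were called. The part of these cell types in the class I values was not tested.

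Across the 20 libraries, b2m was set beside 18191 other genes by Spearman's rho on CPM, as a description over libraries that share age, exercise and cell content. The genes most like it were dtx3lb.3 (0.97), uba7 (0.967), itgb2 (0.964), the gene with the identifier ENSDARG00000088283 (0.964) and ms4a17a.6 (0.962). itgb2 encodes an integrin chain of white blood cells and is on the microglial list used here. Of the members, b2ml (0.95), mhc1zaa (0.92), mhc1zba (0.902), tap2a (0.85) and mhc1uca (0.848) followed b2m most closely. mhc1uba (0.597), mhc1zda (0.289), mhc1lca (0.188) and mhc1zca (0.183) followed it less, and mhc1laa (-0.417), tapbpl (-0.523) and mhc1zka (-0.583) ran against it.

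**Figure D5:**
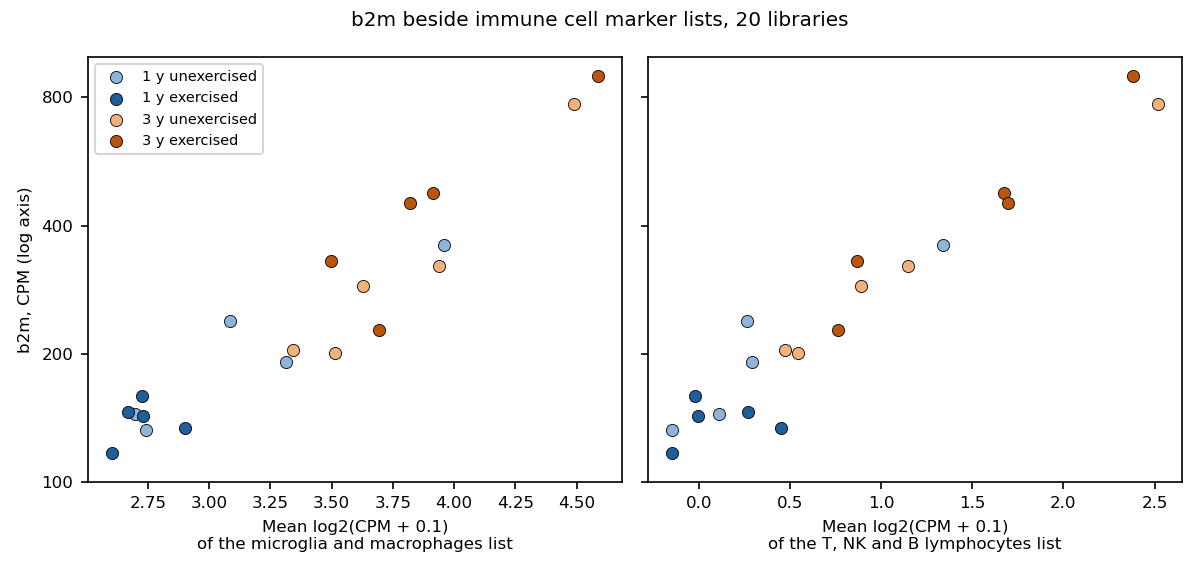
CPM of b2m (log axis) in each of the 20 libraries against the mean log2(CPM + 0.1) of the microglia and macrophages list (left) and of the T, NK and B lymphocytes list (right), coloured by group. The 2 libraries highest in b2m, at 899.5 and 773 CPM, are also the 2 highest in both lists.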

How the data were processed

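The authors deposited a table of read counts and a table of RPKM values for 32105 Ensembl genes in 20 brain libraries. The kit, TruSeq RNA v2 per the labels' protocols, keeps no strand. The build GRCz10 and the tools featureCounts 1.4.6-p4, STAR 2.4.1d and bcl2fastq 1.8.4 come from the submitters' processing notes, which hold no settings. The treatment of reads shared by gene copies is not given there.

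The deposited RPKM values were not divided by each library's own total: the gene length implied by RPKM and count varied between libraries by a median CV of 13.8% with the own total and 0.00217% with the 20 totals applied in turn down the table, over 10136 genes. They served only in an alternative, with a pseudocount of 0.1, and RPKM levels were recomputed from the counts.

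Symbols matched 26269 identifiers. Counts were tested in edgeR 4.0.16 (R 4.3.3), with filterByExpr (minimum count 10, minimum total 15, 21148 genes), TMM scaling, robust quasi-likelihood fits on 4 group means over all 20 libraries and Benjamini-Hochberg adjustment over all genes tested. A gene was called at an adjusted p below 0.05. The SE of a log2 fold change was taken from its F statistic. The fit was tested on simulated data. Levels are CPM with the SD of 5 libraries. Wilson intervals cover counting error only. RefSeq gene order came from the assembly GRCz12tu.

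Values were named for every called member, for the 3 members with the smallest p where fewer were called, for b2m throughout, and for up to 6 called genes of each list (the 2 with the smallest p where none was called). For exercise at 1 year, 1 such list gene is not reported here. The members, lists and rules were chosen with earlier results of these data known. Alternatives were DESeq2 1.42.0, RLE scaling, no filter or 50 counts in 5 libraries, non-robust dispersions, limma-voom (limma 3.58.1), the compared groups only, the RPKM table, each library left out, and 3 sets of libraries left out, of which 2 (highest b2m, highest mhc1uba) were chosen after seeing the data.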

Additional observations from a re-analysis of the deposited data

Results flagged for a closer look

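In 7 of 84 groups of 5 libraries (21 genes in 4 groups) a single library lay far from the other 4, with a gap to its nearest neighbour above 0.71 of the group's whole range. Chance flags about 1 group in 20 where values are normally distributed, which was not checked for these CPM values. All 7 flagged libraries were on the high side, and the genes of a library are not independent. The share of all genes flagged by this measure was not counted, so 7 of 84 has no yardstick. In 3-year unexercised replicate 2, b2m was at 773 CPM with 201 to 321 CPM in the other 4, mhc1uca at 77.2 with 7.57 to 23.7, mhc1zaa at 8.07 with 1.26 to 3.06 and tap2a at 47.0 with 2.95 to 11.2. The same library had the highest summed lymphocyte markers, 404 CPM with 201 to 233 CPM in the others of its group. Within its group it was also highest in microglial markers, at 1387 CPM with 763 to 1239 in the others. The same held for neutrophil markers (171 CPM, with 79.2 to 157) and interferon-stimulated genes (480 CPM, with 193 to 292). b2ml was at 539 CPM in 3-year exercised replicate 1, with 299.7 to 357 CPM in the others. mhc1zca was at 30.1 CPM in 1-year unexercised replicate 1, with 0.108 to 5.11 in the others, and mhc1zea at 23.8 CPM in 1-year unexercised replicate 3, with 9.61 to 9.91. 1-year unexercised replicate 1 was also the library highest in muscle and epidermis markers, at 4745 and 3712 CPM. The part of these immune cells and other tissues in these values was not tested. mhc1uba, high in 2 libraries of its group, is not picked up by this measure, which looks for a single library.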

How the results depend on the processing

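Of 1211 values of 40 named pairs of a member and a comparison under the alternatives, 1111 kept their direction and side of the threshold, 75 lost a call, 20 gained one and 5 changed sign. The sign changes were b2m for exercise at 3 years (-0.121 without the set of 6 libraries with markers of other tissues), b2m for exercise averaged over ages (0.06 on the deposited RPKM, 0.043 without 1-year unexercised replicate 1 and 0.15 without 3-year unexercised replicate 2, in a range of -0.284 to 0.15 with 1 library left out), and mhc1uba for the difference of exercise effects (0.979 without its 2 highest libraries); none of these was called.

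Member calls that moved by over 1.5 times were as follows. DESeq2 called 1 for exercise at 1 year, 1 at 3 years, 2 averaged and 1 for age without exercise. The call at 1 year and 1 of the averaged calls were those of mhc1zca, a member only through the unexercised libraries. The filter of 50 counts gave 1 for exercise averaged and 1 for age without exercise, as did leaving out the 2 libraries highest in b2m. The share of all genes called in these fits was not set beside these counts, so they are no result about class I genes. Leaving out the 6 libraries gave 0 for age with exercise and 5 for age averaged. The cause was not tested; the latter fits hold fewer samples. Leaving out single libraries gave 0 calls for exercise at 1 year, at 3 years and for the difference, 0 to 2 for exercise averaged, 0 to 1 for age without exercise, 4 to 11 with exercise and 10 to 12 averaged.

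For the antigen processing list, DESeq2 called 3 and the compared groups alone 1 for age without exercise, limma-voom 11 for age with exercise, and the fit without the 6 libraries 0 with exercise and 12 averaged. Single libraries left out gave 0 to 1 without, 5 to 19 with and 19 to 25 averaged over exercise. For the interferon list, DESeq2 called 1 for exercise at 3 years and 3 for age without exercise, and limma-voom 8 for age with exercise and 13 averaged. Without the 2 libraries highest in b2m the calls were 1 for exercise at 3 years, 2 averaged, 9 for age with exercise and 13 averaged; without the 6 libraries they were 0 and 10 for age. Single libraries left out gave 0 to 1 for exercise at 3 years, its difference, exercise averaged and age without exercise, 4 to 17 for age with exercise and 17 to 23 averaged. Over all genes, DESeq2 called 271 and 116 for exercise at 1 and 3 years (edgeR 4 and 6), 13 for their difference (1), 679 averaged (192), 548 for age without exercise (124) and 3405 with it (2252). Without the 6 libraries edgeR called 0, 1, 0, 1, 66 and 6 genes in these comparisons and 1411 for age averaged (3584). For limma-voom, the compared groups alone and the fit without the 2 libraries highest in b2m, no share of all genes was set beside the list counts.

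No paired analysis was possible because the replicate numbers follow the order of deposit. The alignment of proteins between members was not run. Depth limits mhc1zja, mhc1lia, mhc1zfa, mhc1zca and mhc1zka, which were under 10 counts in several libraries.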
